A study of Chlorocebus sabaeus with 10 samples.

Results

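The leukocyte miRNAs miR-142, miR-223, miR-150, miR-155 and miR-146 were described in small RNA sequencing data from vervet monkey liver. The 9 members are mature miRNAs chosen by their human names in the deposited count table: hsa-miR-142-3p, hsa-miR-142-5p, hsa-miR-223-3p, hsa-miR-223-5p, hsa-miR-150-5p, hsa-miR-150-3p, hsa-miR-155-5p, hsa-miR-146a-5p and hsa-miR-146b-5p. All 9 were found among the 2588 mature names of the table, and the species prefix is left out from here on. The study took liver tissue from 10 female vervets (Chlorocebus sabaeus), of which 5 were fed a high fructose (HFr) diet and 5 a chow diet. Chow was also the earlier diet of the HFr group, so the groups differ by label only in what they ate during the study. The study reports raised clinical measures of liver injury in the HFr group, and cites earlier analyses that found inflammatory lesions there. The pooled counts below mix HFr and chow livers. The livers were whole tissue, with no sorting of cells named in the sources used here, so that blood and immune cells within the biopsy contributed RNA. Fewer cells of a type and less RNA per cell cannot be told apart in such tissue.

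The effect of HFr on these miRNAs was not analyzed here, because the library columns of the table bear running numbers that match no animal. Each value below is the authors' total count over all libraries, without regard to diet. It has no replicates, no SD and no test between animals. Intervals are given at the 95% level and cover counting error alone: exact Poisson intervals for counts, Wilson intervals for shares, and intervals derived from the exact binomial for ratios of 2 counts. Shares refer to a pool of 2043164 reads, in which each mature name was counted once. The tissue label was checked against miR-122-5p, the defining miRNA of hepatocytes, which ranked 1 of all names with 45.2% of reads.

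miRNAs are cut from a hairpin precursor, which can give 1 mature miRNA from its 5p arm and 1 from its 3p arm. They guide silencing proteins to messenger RNAs, mainly through the seed, a short stretch near the 5′ end. The miRNAs described here are known from blood and immune cells. miR-142 is expressed across nearly all lineages of white blood cells. miR-223 is a miRNA of myeloid cells, above all neutrophils and monocytes, and is also found in platelets. miR-150 is characteristic of mature lymphocytes. miR-155 and the miR-146 pair are induced when immune cells are activated through Toll-like receptors and NF-kB: miR-155 is known to strengthen inflammatory signaling, and miR-146a to dampen it by acting on TRAF6 and IRAK1. In the liver such cells include the resident macrophages (Kupffer cells), natural killer and T cells, and the leukocytes of the blood within the tissue. miR-146 and miR-155 are not restricted to leukocytes and are also known from endothelial and epithelial cells.

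All 9 members had reads, as did 680 of the 2588 names in the table. Together the members held 6255 reads, or 0.306% of the pool (interval 0.299 to 0.314%). The members ranged from 1746 reads for miR-146a-5p to 4 for miR-150-3p, with a median of 694 reads. The 5p arm of miR-146a was thus 436.5 times as frequent as the 3p arm of miR-150. A count of 100 or more was reached by 7 of the 9, or 77.8%, against 7.88% of all names in the table. Those 204 names are a larger part of the 680 names with reads. The list also holds only the more frequent arm of mir-146a, mir-146b and mir-155. The contrast therefore reflects in part how the list was chosen. None of the members was among the most abundant miRNAs of the liver. The highest, miR-146a-5p, ranked 61, and the names above it held 95.8% of the pool.

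**Figure D1:**
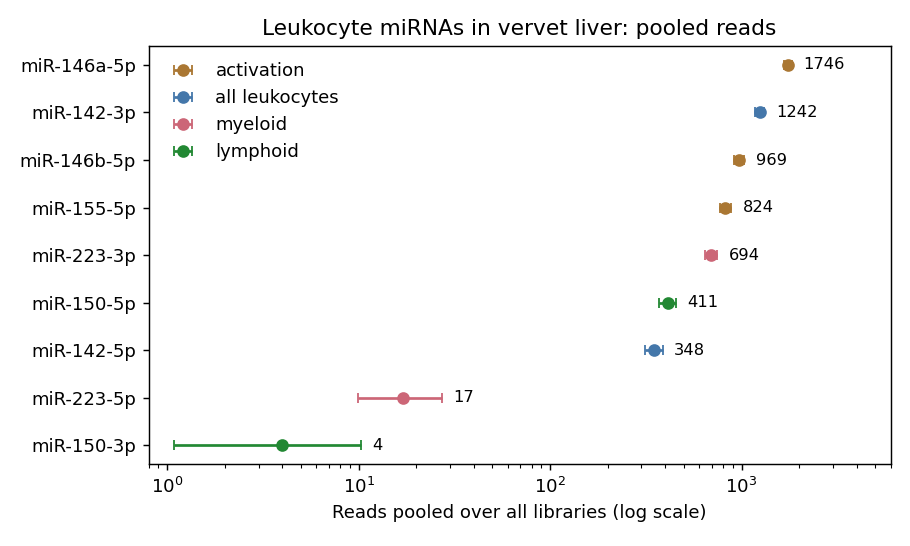
Reads of the 9 leukocyte miRNAs, pooled over all libraries, on a log axis. Points are counts, bars are exact Poisson intervals (95%), and colors give the role of each miRNA. The 7 upper miRNAs lie between 348 and 1746 reads, and miR-223-5p (17) and miR-150-3p (4) lie apart from them with wide intervals.

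A miRNA of immune activation, miR-146a-5p, was the most frequent member, while miR-142-3p stood above the other activation miRNAs. miR-146a-5p had 1746 reads (interval 1665.1 to 1829.9), which is 0.0855% of the pool. miR-146b-5p, which is made from a separate gene, had 969 reads (908.9 to 1032.0), or 0.0474%. miR-146a-5p exceeded miR-146b-5p by 1.80-fold (interval 1.66 to 1.95). The mature 5p forms of the pair share their seed and differ by few bases toward the 3′ end, so that reads of one can be counted for the other, and their ratio is uncertain to that extent. miR-155-5p had 824 reads (768.7 to 882.2), or 0.0403%. It was less frequent than miR-146a-5p, which exceeded it by 2.12-fold (1.95 to 2.30), and less frequent than miR-146b-5p, which exceeded it by 1.18-fold (1.07 to 1.29). The order within the activation miRNAs was therefore miR-146a-5p, miR-146b-5p and miR-155-5p, and counting error alone did not cover either step.

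miR-142, the miRNA common to white blood cells, was the only one of the 6 hairpins with over 100 reads on each arm. miR-142-3p had 1242 reads (1173.9 to 1313.0), or 0.0608% of the pool, and came after miR-146a-5p in the order of the members. miR-142-5p had 348 reads (312.4 to 386.6), or 0.0170%. When both arms were added, the miR-142 hairpin had 1590 reads (1512.8 to 1670.1) and lay close to miR-146a. The latter exceeded it by 1.10-fold at the level of hairpins (1.03 to 1.18), against 1.41-fold (1.31 to 1.51) between miR-146a-5p and miR-142-3p.

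The myeloid miR-223 was more frequent than the lymphoid miR-150. miR-223-3p, which is known to restrain neutrophil activation and the NLRP3 inflammasome, had 694 reads (643.3 to 747.6), or 0.0340% of the pool. miR-150-5p, which is known to act on MYB during lymphocyte maturation, had 411 reads (372.2 to 452.7), or 0.0201%. The ratio of miR-223-3p to miR-150-5p was 1.69 (1.49 to 1.91). miR-142-3p exceeded miR-223-3p by 1.79-fold (1.63 to 1.97) and miR-150-5p by 3.02-fold (2.70 to 3.39). Both lineage miRNAs also had fewer reads than the activation miRNA miR-155-5p, which exceeded miR-223-3p by 1.19-fold (1.07 to 1.32) and miR-150-5p by 2.005-fold (1.78 to 2.26). Adapters are ligated to different miRNAs with different efficiency in such libraries, so these ratios compare reads and not molecules or cells.

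The other arms of both lineage hairpins were rare. miR-223-5p had 17 reads (9.90 to 27.2) and miR-150-3p had 4 (1.09 to 10.2). Spread evenly over 10 libraries, these counts would come to 1.7 and 0.4 reads per library. The depth of each library was not analyzed here, so these figures are averages only. The corresponding figures were 174.6 reads for miR-146a-5p, 69.4 for miR-223-3p, 41.1 for miR-150-5p and 34.8 for miR-142-5p.

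In the order of totals, the interval of the ratio excluded 1 for each of the 8 pairs of neighbors among the members. The pairs were formed by sorting these same totals, so no ratio could lie below 1. The intervals describe counting error around that order and are no separate test of it. The closest was miR-150-5p over miR-142-5p, at 1.18-fold (1.02 to 1.37), an interval that comes near to 1. The widest step lay between miR-142-5p and miR-223-5p, at 20.5-fold (12.6 to 35.5). At the level of hairpins the order was mir-146a, mir-142, mir-146b (971 reads), mir-155, mir-223 (711 reads) and mir-150 (415 reads). The interval of the ratio lay above 1 for all 5 neighboring pairs of hairpins, which were sorted in the same way. The smallest of these steps, from mir-146a to mir-142, has been given above, and mir-155 exceeded mir-223 by 1.16-fold (1.05 to 1.28). Whether the same order holds in each animal could not be examined from a pooled count.

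Grouped by role, the 3 activation miRNAs, which come from 3 hairpins against 1 for each other role, held 3539 of the 6255 reads, or 56.6% (55.3 to 57.8%). Both arms of miR-142 held 25.4% (24.4 to 26.5%). The miR-223 arms held 711 reads, or 11.4% (10.6 to 12.2%), and the miR-150 arms 415 reads, or 6.63% (6.04 to 7.28%). The myeloid group exceeded the lymphoid group by 1.71-fold (1.52 to 1.94). The activation group exceeded the miR-142 arms by 2.23-fold (2.10 to 2.36), the myeloid group by 4.98-fold (4.59 to 5.40) and the lymphoid group by 8.53-fold (7.70 to 9.46). Without miR-155-5p the activation group still held the largest share, 50.0%, and still had more hairpins than any other role. By single hairpins, mir-142 (1590 reads) stood below mir-146a (1746) but above mir-146b (971) and mir-155 (824). The lead of the activation group thus depends on how many hairpins it holds. The groups are named from what is known of these miRNAs, and the cells that made the reads were not measured.

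**Figure D2:**
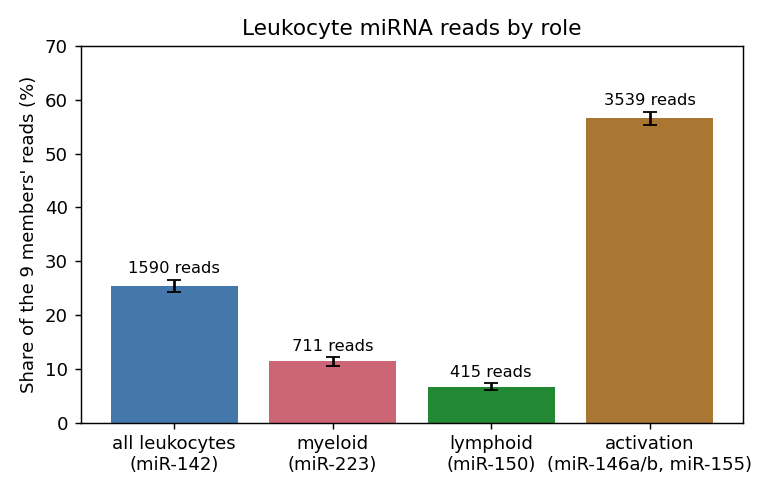
Share of the 6255 reads of the 9 members that fell to each role, in percent, with Wilson intervals (95%) as bars and the number of reads above each column. The activation miRNAs (3539 reads) hold more than the 3 other roles together, and miR-150 (415 reads) holds the least.

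Arm use set miR-142 apart from the other hairpins. The 5p arm was the more frequent in 4 of the 6 hairpins (mir-146a, mir-146b, mir-155 and mir-150), and the 3p arm in mir-142 and mir-223. In mir-142 the 3p arm held 78.1% of reads (76.0 to 80.1%) and the 5p arm 21.9% (19.9 to 24.0%), so that the 3p arm exceeded the 5p arm by 3.57-fold (3.17 to 4.03). In mir-223 the 3p arm held 97.6% (96.2 to 98.5%) and exceeded the 5p arm by 40.8-fold (25.3 to 70.5). In mir-150 the 5p arm held 99.0% (97.5 to 99.6%). The 3p arm of mir-146b had 2 reads against 969, a 5p share of 99.8% (99.3 to 99.9%).

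The 3p arms of mir-146a and mir-155 had 0 reads. With 3 reads as a one-sided limit for a count of 0, the 5p arm was at least 582.0-fold higher in mir-146a and at least 274.7-fold higher in mir-155. The one-sided limits correspond to a 3p share of up to 0.172% and up to 0.364% of each hairpin's reads, and the two-sided Wilson intervals reach 0.220% and 0.464%. Over all 6 hairpins the less frequent arm had 371 of 6257 reads, or 5.93% (5.37 to 6.54%). miR-142-5p made up 93.8% of these 371 reads, and the remaining 23 reads came from miR-223-5p, miR-150-3p and miR-146b-3p.

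**Figure D3:**
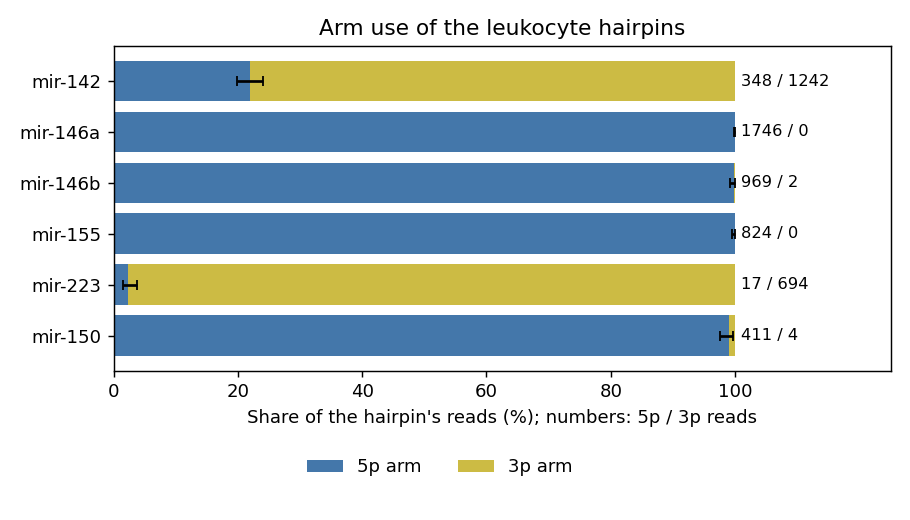
Share of each hairpin's reads on the 5p and the 3p arm, in percent, with the Wilson interval (95%) of the 5p share as a bar and the reads of both arms at the right. mir-142 divides its reads 348 to 1242, whereas the rarer arm has between 0 and 17 reads in the 5 other hairpins.

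In 179 hairpins of the table both arms had a name and their reads came to 100 or more, and all 6 leukocyte hairpins are among them. The median share of the less frequent arm over these hairpins was 0.893%. The share of 21.9% in mir-142 was surpassed by 22 hairpins, or 12.3%. The share in mir-223 (2.39%) was surpassed by 73 and that in mir-150 (0.964%) by 85, so that both lay near the middle of the hairpins in the liver. A less frequent arm with 0 reads, as in mir-146a and mir-155, was found in 20 of the 179 hairpins, or 11.2%. Many hairpins that share a mature miRNA are counted separately here, and they are not independent.

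Among the 680 names with reads, the 7 more frequent members lay in the upper part, with at most 19.1% of names above them. Their ranks were 61 for miR-146a-5p, 80 for miR-142-3p, 87 for miR-146b-5p, 88 for miR-155-5p, 97 for miR-223-3p, 122 for miR-150-5p and 131 for miR-142-5p. miR-223-5p ranked 333 and miR-150-3p 466, positions they shared with 5 and 37 other names of the same count. miR-223-3p had the same count as miR-222-3p, and miR-155-5p followed miR-146b-5p directly. The name just above miR-146a-5p was miR-151b (1748 reads) and the name just below was miR-369-3p (1731 reads). miR-142-3p stood between miR-28-3p (1271 reads) and miR-30a-3p (1237 reads), miR-150-5p between miR-664a-3p (424 reads) and miR-29b-3p (405 reads), and miR-142-5p between miR-99b-5p (358 reads) and miR-455-5p (328 reads). Above miR-146b-5p stood miR-411-5p (1013 reads), below miR-155-5p stood miR-574-3p (819 reads), and below miR-223-3p stood miR-200a-3p (692 reads). Counting error makes such places uncertain: the Poisson interval of miR-146a-5p held the counts of 5 other names, that of miR-223-3p 9, and that of miR-142-5p 12.

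**Figure D4:**
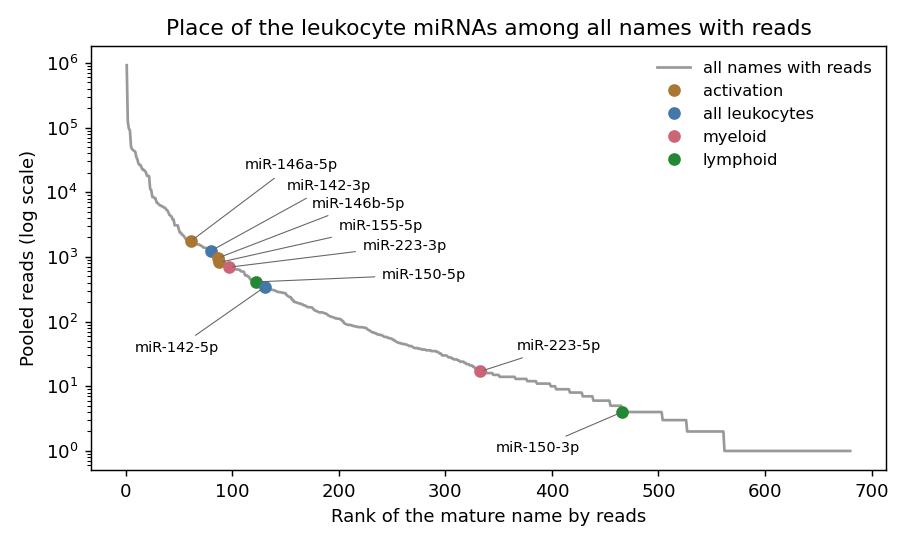
Pooled reads (log axis) of the 680 names with reads against their rank, with the 9 leukocyte miRNAs as colored points. The members run from rank 61 to rank 466, and 7 of them lie between ranks 61 and 131.

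The members were set beside miRNAs of other cells that blood and vessels bring into a liver biopsy. miR-451a, miR-486-5p and both arms of miR-144 are abundant in red blood cells, and both arms of miR-126 in endothelium. The 4 red cell miRNAs had 11531 reads, which was 1.84 times the sum of the 9 leukocyte miRNAs (1.79 to 1.90). This excess came from miR-486-5p (8488 reads), which is also made in muscle. It stands on 2 precursor rows with 8488 and 8324 reads, and with all rows added the red cell sum was 3.17 times the leukocyte sum. Both rows are the same mature miRNA, so adding them can count the same reads on each. The value of 3.17 is therefore no separate estimate of the excess. Without miR-486-5p the red cell miRNAs had 3043 reads, 0.486 times the leukocyte sum (0.466 to 0.508). The leukocyte sum includes 3539 reads of the activation miRNAs, which are not restricted to leukocytes. The arms of miR-142 (1590 reads), miR-223 (711) and miR-150 (415) together had fewer than 3043 reads. The red cell sum without miR-486-5p was thus the smaller only with the activation miRNAs counted. The 2 endothelial miRNAs, both arms of mir-126, had 22537 reads, 3.60 times the leukocyte sum (3.50 to 3.71). This excess rests on mir-126 alone. Of other hairpins also known from endothelium, mir-139 had 202 reads on its 5p and 62 on its 3p arm, and mir-511 had 58 and 66. Both had fewer reads than mir-150 (415), the lowest of the leukocyte hairpins. The arms of mir-511 are also part of the wider leukocyte list below, so mir-511 is not particular to endothelium.

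By single miRNAs, miR-451a (2366 reads) exceeded miR-142-3p by 1.90-fold (1.78 to 2.04), miR-223-3p by 3.41-fold (3.13 to 3.72) and miR-150-5p by 5.76-fold (5.18 to 6.41). miR-144-5p (664 reads) and miR-223-3p did not differ beyond counting error, with a ratio of 0.957 (0.859 to 1.07). miR-144-3p had 13 reads. miR-126-3p exceeded miR-223-3p by 29.3-fold (27.2 to 31.7) and miR-150-5p by 49.5-fold (44.9 to 54.7). The rarer endothelial arm, miR-126-5p (2193 reads), also exceeded miR-142-3p, by 1.77-fold (1.65 to 1.89). miR-142-3p, miR-223-3p and miR-150-5p were therefore all read less often than miR-451a, miR-486-5p and both miR-126 arms, but not less often than miR-144-3p. How much of the leukocyte signal came from blood in the vessels and how much from cells resident in the liver was not tested.

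A wider list of 16 miRNAs that are enriched in leukocytes or respond to inflammation was read as well. Of these 13 had reads, 10 had at least 10 and 3 had at least 100. Among all 2588 names of the table, 680 had reads, 403 had at least 10 and 204 had at least 100. The list was chosen with earlier results of these data known, so its counts are no result about leukocyte miRNAs. The most frequent by far was miR-21-5p (91173 reads), which many cell types of the liver make and which exceeded the sum of the 9 members by 14.6-fold (14.2 to 15.0). The other 15 names together had 637 reads. miR-342-3p, known from lymphocytes and monocytes, had 202 reads (175.1 to 231.9), and miR-150-5p exceeded it by 2.03-fold (1.72 to 2.42). miR-9-5p, which is induced in stimulated monocytes, had 102 reads (83.2 to 123.8), and miR-132-3p, another miRNA induced by stimulation, had 83 (66.1 to 102.9). The 3 names with 0 reads were miR-146a-3p, miR-155-3p and miR-212-5p, all of them arms of hairpins whose other arm had reads. For these the one-sided limit of 3 reads is 0.000147% of the pool, and the two-sided Wilson interval reaches 0.000188%.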

How the data were processed

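Total RNA from flash frozen liver of 5 HFr-fed and 5 chow-fed female vervets was made into libraries with the Illumina TruSeq small RNA kit and sequenced on a GAIIx. The processing notes name cutadapt 1.10 and Bowtie, and the methods name miRDeep2, with human miRNA names throughout the table. The genome build and the miRNA release were not given in the sources used here. Reads of a vervet miRNA whose bases depart from the human form may have been missed. The deposited file holds raw counts per mature miRNA and precursor (2948 rows), and the authors' total count over all libraries was the only column used. Its 20 library columns (raw and normalized) match no sample and were used in no computation, so the test of HFr against chow was not run.

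Each name was counted by its row with the highest total. Every member has 1 row. The authors' counts were turned into shares, ratios and intervals in Python 3.11.15 with scipy 1.17.1, and figures were drawn with matplotlib 3.10.9. Hairpins entered the arm comparison with at least 100 reads on both arms together. Reads carry no molecular identifiers by the sources used here, so intervals do not cover amplification. On simulated reads drawn from the members' shares, 95.1% of the Wilson, 95.5% of the Poisson and 95.8% of the ratio intervals held the true value.

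Members, roles and lists were chosen with earlier results of these data known. The text names all members, their neighbors in the order of totals, the comparators, and the most frequent names and the names at 0 of the wider list, and passes over the neighbors of miR-223-5p and miR-150-3p, which share their counts with many names. The comparisons of hairpin sums, of summed lists, of miR-155-5p with miR-150-5p, and of miR-150-5p with miR-342-3p were added after the values were seen. Alternatives were adding all precursor rows, leaving miR-122-5p out of the pool, leaving out miR-155-5p, using 1 arm per hairpin, and minimums of 10 and 100 reads. A further alternative counted names once that have the same arm and the same counts on the same precursors. Sequence features of the members were planned and not analyzed here.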

Additional observations from a re-analysis of the deposited data

How the results depend on the processing

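The 9 members held 0.306% of the pool, 0.234% when all precursor rows were added and 0.558% when miR-122-5p was left out of the pool. Both shifts follow from the size of the pool, since each member has 1 row. Counting names once that have the same arm and the same counts on the same precursors gave 0.310%. For the same reason adding all rows could not alter ratios or arm shares among the members. miR-486-5p has 2 rows, and adding them, an alternative chosen after seeing the data, took the ratio of the red cell sum to the leukocyte sum from 1.84 to 3.17. Both rows are the same mature miRNA, so this rise can come from counting the same reads on each. The endothelial ratio stayed at 3.60. Leaving out miR-155-5p gave 50.0% for activation, 29.3% for miR-142, 13.1% for myeloid and 7.64% for lymphoid reads. With 1 arm per hairpin, activation held 60.1% and miR-142 21.1%, while the myeloid (11.8%) and lymphoid (6.98%) shares stayed within their counting intervals. The order of the 4 roles was the same in both cases. The minimum of 10 reads left 8 members and that of 100 left 7, against 403 and 204 of the 2588 names in the table. No paired analysis was possible because no library could be tied to an animal, and no other normalization or low-count filter for tests was run. Leaving out each library was not run either, because it needs the numbered library columns, which no computation used, and how far 1 library decides a total was not examined. Depth limits miR-223-5p and miR-150-3p, whose intervals span more than 2-fold.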

Other observations

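Hairpins of the wider list that carry leukocyte or inflammation-responsive miRNAs were also read on both arms, and were chosen for description after their values were seen. In mir-342 the 3p arm held 202 of 276 reads, or 73.2% (Wilson interval 67.7 to 78.1%), a division like that of mir-142 in direction. mir-511, which lies within the mannose receptor gene MRC1 of macrophages and sinusoidal endothelium, had 58 reads of its 5p and 66 of its 3p miRNA, and the 3p share of 53.2% (44.5 to 61.8%) did not differ from balance beyond counting error. In mir-132 the 3p arm held 83 of 95 reads, or 87.4% (79.2 to 92.6%). miR-650, which lies among the immunoglobulin lambda genes in the human genome, had 1 read, and miR-147b, induced in stimulated macrophages, had 2. No explanation of these values was tested.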
